A study of Homo sapiens with 8 samples.

Results

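Expression of 10 genes that set the pace of entry into the cell cycle was followed in stromal cells before and after freezing: the D-type cyclins CCND1, CCND2 and CCND3, the CIP/KIP inhibitors CDKN1A, CDKN1B and CDKN1C, the INK4 inhibitors CDKN2A, CDKN2B and CDKN2C, and MDM2. They were taken by symbol from a table of 23354 genes, in which all 10 were found. All 10 also passed the filter on low counts, which left 15924 genes to test. D-type cyclins bind the kinases CDK4 and CDK6, and the active pair phosphorylates the retinoblastoma protein, which then releases E2F factors and lets a cell pass from G1 into S phase. INK4 proteins bind CDK4 and CDK6 and keep them from the cyclin, whereas CIP/KIP proteins bind cyclin-kinase complexes, those of CDK2 above all. CDKN2A also encodes ARF, which restrains MDM2, the ubiquitin ligase that removes p53. In cultured stromal cells the INK4 locus on chromosome 9 is best known for its part in senescence.

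The study used mesenchymal stromal cells made from the established human embryonic stem cell line H9, grown on gelatin and used at passages 8 to 12. There were 8 libraries of total RNA, 1 for each condition. The fresh group held 3 libraries: 0 h, 1 h in medium (labelled Media) and 1 h with DMSO, the usual cryoprotectant. The group frozen in DMSO held 2 libraries, of cells incubated at room temperature for 0 h or 1 h. The osmolyte-frozen group held 3 libraries, of cells frozen without a DMSO label in multicomponent solutions named SMC (2 h), SGC (1 h) and SGI (1 h), whose composition the labels do not give. The osmolyte solutions were cooled at 3 °C per minute and the DMSO solution at 1 °C per minute, so the solution and the cooling rate cannot be told apart, and no unfrozen cells in an osmolyte solution were among the libraries. Since the labels name no separate cultures, a p-value here rests on the scatter among libraries of unlike conditions within a group, which may be technical. In bulk RNA, fewer cells of a type and less RNA per cell cannot be told apart.

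Counts summed to between 41198716 and 51166666 per library. Levels are given as CPM, counts brought to a common library size with TMM factors, the trimmed means of M-values. The 10 listed markers of mesenchymal stromal cells were detected in every library and summed to 61559 to 66761 CPM in fresh libraries, 64839 to 75232 in DMSO-frozen and 60981 to 82268 in osmolyte-frozen ones, but most of that sum was collagen, COL1A1 at 28938 to 45237 and COL1A2 at 20182 to 28553 CPM. Gene by gene, 1 was higher and 5 lower in osmolyte-frozen than in DMSO-frozen cells, 0 and 1 in DMSO-frozen than in fresh cells, and 2 and 6 in osmolyte-frozen than in fresh cells, where 29.3%, 1.82% and 39.4% of all genes tested were called. Several surface markers were among those that fell. THY1, or CD90, lay between 227 and 300 CPM in all 8 libraries. The genes named next had the largest changes among those called, and none of the genes called higher was among them. CD44 fell 1.79-fold between frozen groups (edgeR adjusted p = 5.30e-07) and 2.07-fold in osmolyte-frozen against fresh cells (2.36e-09), ALCAM 1.73-fold (3.58e-06) and 1.66-fold (8.75e-07), and NT5E, or CD73, 1.55-fold between frozen groups (2.65e-05). ENG, or CD105, fell 1.27-fold from fresh to DMSO-frozen (edgeR adjusted p = 0.0401) and 1.68-fold from fresh to osmolyte-frozen cells (3.65e-07). Of 7 blood cell markers, 6 stayed under 1 CPM in every library, the exception being CD34. The sum of 10 pluripotent stem cell markers moved with the groups, from 28.2 to 29.2 CPM in fresh libraries to 35.1 to 35.4 in DMSO-frozen and 42.4 to 45.9 in osmolyte-frozen ones. Of the 8 tested, 2, 1 and 5 were called higher in the same 3 comparisons and none lower, and PODXL, a surface sialomucin, rose 1.55-fold from fresh to DMSO-frozen (edgeR adjusted p = 0.00238) and 1.77-fold from fresh to osmolyte-frozen cells (2.42e-06). SOX2 and TDGF1 were under 1 CPM in all 8 libraries and no gene of that list was at 0 throughout. The sum of 8 endothelial and epithelial markers was 1346 to 1537 CPM in fresh, 1214 to 1236 in DMSO-frozen and 1257 to 1379 in osmolyte-frozen libraries, nearly all of it the keratins KRT8 and KRT18. Against fresh cells 3 of these genes were higher and 2 lower in osmolyte-frozen cells. KRT8 fell 1.20-fold (edgeR adjusted p = 0.0135), while CDH5 (log2 2.28, 0.000721), CDH1 (1.30, 0.0331) and EPCAM (0.93, 0.00481) rose and VWF fell (-1.09, 0.0228), these 4 being at most 2.19 CPM in any library and named after their values were seen. The other comparisons called 0 of the 8 by edgeR, DESeq2 or limma-voom, with 2 higher and 1 lower in each at an unadjusted edgeR p under 0.05. The part of these other cell types in the results that follow was not tested.

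Promoter sequence was available in RefSeq for 7 of the 10 genes, in build GRCh38.p14. The windows of CDKN2B and CDKN2A, neighbours on chromosome 9 and the INK4 genes that were higher after freezing in osmolyte solutions, are shown from 250 bases before to 50 bases after each start site, on the minus strand, 5′ to 3′. Capitals mark GGGCGG or its reverse complement CCGCCC, the core of a GC box. CDKN2A has a downstream start, that of the p16 transcript, and an upstream start, that of the ARF transcript.
CDKN2B, chr9:22009256-22009555: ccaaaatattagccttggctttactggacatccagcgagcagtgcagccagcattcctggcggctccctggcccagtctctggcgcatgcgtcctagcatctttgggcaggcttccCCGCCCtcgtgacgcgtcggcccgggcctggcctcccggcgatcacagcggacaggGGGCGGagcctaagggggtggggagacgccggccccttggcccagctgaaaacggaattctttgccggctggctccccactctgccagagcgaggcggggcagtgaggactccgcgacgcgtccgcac
CDKN2A, downstream start, chr9:21974808-21975107: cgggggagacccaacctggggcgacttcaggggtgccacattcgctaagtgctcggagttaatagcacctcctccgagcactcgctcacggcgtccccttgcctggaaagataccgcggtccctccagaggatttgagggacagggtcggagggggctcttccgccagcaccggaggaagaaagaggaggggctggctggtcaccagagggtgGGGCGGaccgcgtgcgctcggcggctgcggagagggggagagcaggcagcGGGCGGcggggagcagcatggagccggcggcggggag
CDKN2A, upstream start, chr9:21995275-21995574: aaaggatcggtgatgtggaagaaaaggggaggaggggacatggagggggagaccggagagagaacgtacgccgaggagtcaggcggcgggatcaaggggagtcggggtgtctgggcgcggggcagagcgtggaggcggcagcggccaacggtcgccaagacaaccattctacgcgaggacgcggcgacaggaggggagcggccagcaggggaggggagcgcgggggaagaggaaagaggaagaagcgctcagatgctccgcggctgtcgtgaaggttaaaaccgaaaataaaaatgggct

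The CDKN2B window held 2 GC box cores, whose first bases lay 134 and 78 bases before the start site. The downstream CDKN2A window held 2, beginning 37 bases before and 14 bases after its start, and the upstream window held none of these letters. GC made up 67.3% of the CDKN2B window, 69.0% of the downstream and 63.3% of the upstream CDKN2A window, against a median of 58.7% over 35116 promoters. GGGCGG on either strand was present in 45.0% of those promoters. Other motifs searched on both strands had no match in the 3 windows shown. They were the CCAAT box (CCAAT, found in 34.6% of all promoters), the TATA box (TATAAA, 11.5%), the cyclic AMP response element (TGACGTCA, 1.85%), the AP-1 site (TGACTCA, 4.95%), the E-box (CACGTG, 7.26%) and a pair of E2F sites (TTTCCCGC, 1.63%, with the variant TTTGGCGC, 0.652%).

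Per length, the 10 genes covered a wide range. In the authors' RPKM values, CDKN1A was the most abundant at 127 ± 9.84 (SD, n = 8 libraries), followed by CCND1 at 60.3 ± 4.71. CDKN1B at 20.7 and MDM2 at 20.0 RPKM came next, with ranges over libraries that overlapped each other. CCND3 at 11.7, CDKN2A at 9.54, CDKN2B at 8.39 and CDKN1C at 5.78 RPKM followed, each overlapping its neighbour in this order. CDKN2C stood below its neighbour at 3.45 RPKM, though its highest library, at 4.16, passed the lowest of CDKN2B, at 4.05. CCND2 was lowest at 0.278 RPKM and overlapped with no other member. Between 0.108 and 0.618 RPKM, CCND2 was also the member that varied most, with a coefficient of variation of 81.1% over the 8 CPM values. CDKN2B at 59.9% and CDKN2A at 32.5% came after it, and CCND3, at 5.91%, varied least.

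**Figure D1:**
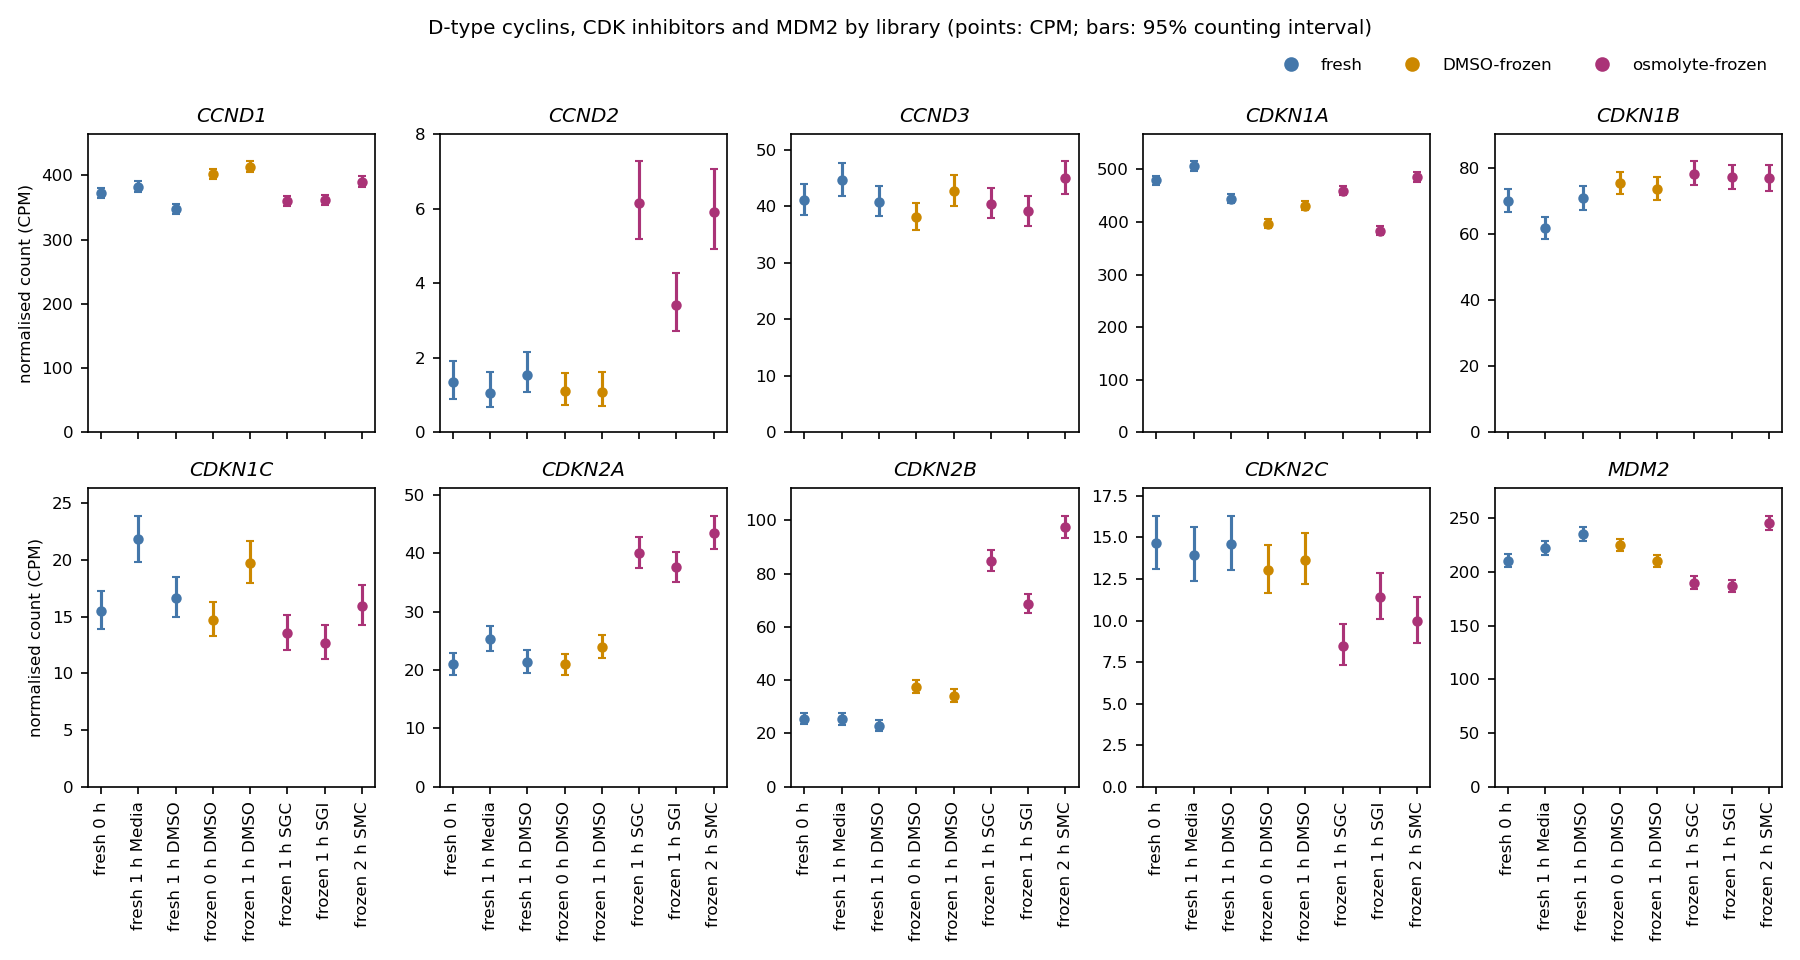
CPM of each gene (vertical axis, from 0, a scale of its own per panel) in each of the 8 libraries (horizontal axis), coloured by group, with 95% exact Poisson intervals that cover counting error only. CCND2, CDKN2A and CDKN2B stand higher in all 3 osmolyte-frozen libraries than in the other 5, and CDKN2C stands lower.

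Setting osmolyte-frozen beside DMSO-frozen cells compares freezing in solutions without a DMSO label with freezing in DMSO. These groups also differ in cooling rate and in incubation, which was 2 h, 1 h and 1 h against 1 h and 0 h. Of the 10 genes, CCND2, CDKN2A and CDKN2B were higher and CDKN2C was lower after freezing in osmolyte solutions (edgeR quasi-likelihood test, Benjamini-Hochberg adjusted p under 0.05). CCND2 rose 4.68-fold, CDKN2B 2.34-fold and CDKN2A 1.80-fold, and CDKN2C fell 1.34-fold. Among the 15924 genes tested, 29.3% were called in this comparison, 13.1% higher and 16.2% lower, which is the background to a count of 4 of 10. The libraries of the 2 groups did not overlap for 6 of the 10 genes, against 56.3% of all genes tested. The median log2 fold change was 0.05 over the 10 genes and 0.04 over all genes.

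CCND1 is the main D-type cyclin of these cells and a growth factor-induced gene, at chr11:69455873-69469242 in hg19. Its level was 372 CPM in fresh 0 h, 347 in fresh 1 h DMSO and 382 in fresh 1 h Media cells. DMSO-frozen cells incubated for 1 h and 0 h had 413 and 402 CPM. Osmolyte-frozen cells had 390, 360 and 361 CPM in SMC, SGC and SGI. Both DMSO-frozen libraries were above the other 6. The estimates did not pass the test, at a log2 fold change of -0.14 ± 0.08 (SE) for osmolyte-frozen against DMSO-frozen (edgeR adjusted p = 0.197, interval -0.30 to 0.02), 0.15 ± 0.08 for DMSO-frozen against fresh (adjusted p = 0.446) and 0.01 ± 0.07 for osmolyte-frozen against fresh (adjusted p = 0.912).

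CCND2, a second D-type cyclin at chr12:4382902-4414522, was scarce in fresh cells, with 1.34 CPM at 0 h (a count of 60), 1.55 in 1 h DMSO (68) and 1.07 in 1 h Media (44). Cells frozen in DMSO had 1.09 CPM at 1 h (50) and 1.11 at 0 h (56). Cells frozen in osmolyte solutions had 5.91 CPM in SMC (242), 6.16 in SGC (276) and 3.43 in SGI (158). All 3 osmolyte-frozen libraries were above the other 5, and the counting interval of the lowest, SGI at 2.71 to 4.27 CPM, lay above that of the highest fresh library, at 1.07 to 2.16. The log2 fold change was 2.23 ± 0.27 (SE) against DMSO-frozen cells (edgeR adjusted p = 1.02e-05) and 1.96 ± 0.23 against fresh cells (adjusted p = 2.28e-06), a 3.90-fold difference. DMSO-frozen and fresh cells overlapped, with a log2 fold change of -0.27 ± 0.28 (adjusted p = 0.739) and an interval of -0.82 to 0.29.

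CCND3, the third D-type cyclin, at chr6:41902671-42016610, lay between 38.2 and 45.0 CPM in all 8 libraries. Its groups overlapped in each comparison, with means of 42.2 ± 2.14 CPM in fresh cells (SD, n = 3), 40.4 ± 3.21 in DMSO-frozen cells (n = 2) and 41.6 ± 3.07 in osmolyte-frozen cells (n = 3). None of the 3 log2 fold changes, -0.02, -0.06 and 0.04, passed the edgeR test, with adjusted p of 0.836 against fresh, 0.818 for DMSO-frozen against fresh and 0.769 between frozen groups. Because CCND1 made up 82.9% of the summed RPKM of the D-type cyclins in fresh cells, 84.9% in DMSO-frozen and 82.8% in osmolyte-frozen cells, the higher CCND2 left the sum little changed. CCND2 made up 0.197% of that sum in fresh cells, 0.151% in DMSO-frozen cells and 0.758% in osmolyte-frozen cells.

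Of the CIP/KIP inhibitors none was called between frozen groups or between DMSO-frozen and fresh cells, whether by edgeR, at an unadjusted p under 0.05, by DESeq2 or by limma-voom. CDKN1A encodes p21, a direct target of p53, and lies at chr6:36644237-36655116. It stood at 479, 444 and 506 CPM in fresh 0 h, 1 h DMSO and 1 h Media cells, at 431 and 397 CPM in DMSO-frozen 1 h and 0 h cells, and at 486, 459 and 384 CPM in SMC, SGC and SGI. The DMSO-frozen libraries were below all fresh ones, while the osmolyte-frozen libraries spanned both groups, with SGI the lowest of the 8. No contrast passed the edgeR test: the log2 fold change was 0.10 ± 0.10 between frozen groups (adjusted p = 0.469, interval -0.09 to 0.29), -0.20 ± 0.10 for DMSO-frozen against fresh (adjusted p = 0.395) and -0.10 ± 0.09 for osmolyte-frozen against fresh (adjusted p = 0.358).

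CDKN1B encodes p27, which accumulates in quiescent cells, and lies at chr12:12870302-12875305. Fresh cells had 70.1, 71.0 and 61.9 CPM at 0 h, 1 h DMSO and 1 h Media, DMSO-frozen cells 73.9 and 75.5 CPM at 1 h and 0 h, and osmolyte-frozen cells 77.0, 78.4 and 77.4 CPM in SMC, SGC and SGI. The order was the same throughout, fresh below DMSO-frozen below osmolyte-frozen, with no overlap between groups. The steps were small: 1.04-fold between frozen groups (log2 0.05 ± 0.08, edgeR adjusted p = 0.638), a log2 fold change of 0.14 ± 0.08 for DMSO-frozen against fresh (adjusted p = 0.487) and 1.15-fold for osmolyte-frozen against fresh (0.20 ± 0.07, adjusted p = 0.0372). The last call was kept in 6 of 15 alternative analyses, whose adjusted p ran from 0.0217 to 0.141. Leaving out the fresh 0 h library gave 0.0692, fresh 1 h Media 0.141, SMC 0.0774, SGC 0.127, SGI 0.0802, DMSO-frozen 1 h 0.0520 and DMSO-frozen 0 h 0.0521.

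CDKN1C encodes p57, an imprinted inhibitor, at chr11:2904448-2906995. Its libraries were uneven within groups: 15.5, 16.7 and 21.8 CPM in fresh 0 h, 1 h DMSO and 1 h Media cells, 19.8 and 14.7 CPM in DMSO-frozen 1 h and 0 h cells, and 15.9, 13.6 and 12.7 CPM in SMC, SGC and SGI. All 3 groups overlapped. Osmolyte-frozen cells had a log2 fold change of -0.36 ± 0.14 against fresh cells (edgeR adjusted p = 0.0617) and of -0.29 ± 0.16 against DMSO-frozen cells (adjusted p = 0.178), and DMSO-frozen cells one of -0.06 ± 0.16 against fresh (adjusted p = 0.908). With only the libraries held for 1 h, CDKN1C passed as lower in osmolyte-frozen cells against fresh (log2 -0.55, edgeR adjusted p = 0.00197). Against DMSO-frozen cells the log2 fold change was then -0.58. There the 1 h DMSO-frozen library, at 19.8 CPM, stood alone for its group, without the 0 h library at 14.7 CPM. It passed against fresh cells in 8 of 15 alternative analyses, also without the fresh 0 h library (-0.47, adjusted p = 0.0227), SMC (-0.47, 0.0273), DMSO-frozen 1 h (-0.36, 0.0384) or DMSO-frozen 0 h (-0.36, 0.0376).

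All 3 INK4 inhibitors were called in both comparisons with osmolyte-frozen cells, 2 higher and 1 lower. Of all genes tested, 29.3% were called against DMSO-frozen cells and 39.4% against fresh cells. CDKN2B encodes p15, an inhibitor of CDK4 and CDK6 known as a target of TGF-beta signalling, and lies at chr9:22002902-22009312. Fresh cells had 25.6 CPM at 0 h, 22.8 in 1 h DMSO and 25.3 in 1 h Media. DMSO-frozen cells had 34.1 CPM at 1 h and 37.5 at 0 h. Osmolyte-frozen cells had 97.4 CPM in SMC, 84.9 in SGC and 68.7 in SGI. The 3 groups formed separate steps with no overlap, and within the osmolyte-frozen group SMC, the only library held for 2 h, was highest and SGI lowest. The log2 fold change was 1.22 ± 0.12 for osmolyte-frozen against DMSO-frozen cells (edgeR adjusted p = 3.58e-06) and 1.77 ± 0.11 for osmolyte-frozen against fresh cells (adjusted p = 4.73e-09), a 3.40-fold difference. DMSO-frozen cells were 1.46-fold above fresh cells (log2 0.54 ± 0.12, edgeR adjusted p = 0.0237). This last comparison and that of osmolyte-frozen with fresh cells share the 3 fresh libraries.

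CDKN2B was the only one of the 10 genes called between DMSO-frozen and fresh cells, where 1.82% of the genes tested were called, 1.22% higher and 0.603% lower. The libraries did not overlap for 5 of the 10 genes in that comparison, against 31.2% of all genes. The CDKN2B call was kept in 10 of 15 alternative analyses. It was lost without the fresh 1 h DMSO library (edgeR adjusted p = 0.0681) and without fresh 1 h Media (0.0752). It was also lost without either DMSO-frozen library and with only the libraries held for 1 h, where a single DMSO-frozen library was left. The log2 fold change stayed between 0.47 and 0.61.

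CDKN2A encodes the inhibitor p16 and, from the upstream start, ARF, and lies at chr9:21967751-21994490. Counts per gene do not separate the products. Its level was 21.0, 21.4 and 25.3 CPM in fresh 0 h, 1 h DMSO and 1 h Media cells and 24.0 and 21.0 CPM in DMSO-frozen 1 h and 0 h cells. It was 43.5, 40.1 and 37.6 CPM in SMC, SGC and SGI. All 3 osmolyte-frozen libraries were above the other 5, among which fresh and DMSO-frozen cells overlapped. The log2 fold change was 0.85 ± 0.11 against DMSO-frozen cells (edgeR adjusted p = 1.33e-05) and 0.84 ± 0.09 against fresh cells (adjusted p = 1.05e-06), a 1.79-fold difference. Between DMSO-frozen and fresh cells it was -0.01 ± 0.10 (adjusted p = 0.986), with an interval of -0.21 to 0.20. CDKN2A and CDKN2B are close relatives in sequence, and how reads that match both were counted is not given in the sources used here, so the split between them is uncertain.

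CDKN2C, at chr1:51434367-51440309, encodes p18, an INK4 protein of proliferating and differentiating cells, and went the other way. Fresh cells had 14.6, 14.6 and 13.9 CPM at 0 h, 1 h DMSO and 1 h Media, DMSO-frozen cells 13.6 and 13.0 CPM at 1 h and 0 h, and osmolyte-frozen cells 9.97, 8.48 and 11.4 CPM in SMC, SGC and SGI. All 3 osmolyte-frozen libraries were below the other 5. Against fresh cells it was 1.45-fold lower (log2 -0.53 ± 0.11, edgeR adjusted p = 0.000797), and this held in all 15 alternative analyses. Against DMSO-frozen cells the log2 fold change was -0.42 ± 0.12 (adjusted p = 0.0136). That call was lost without SGC (adjusted p = 0.0528). It was also lost without either DMSO-frozen library and with only the libraries held for 1 h, where a single DMSO-frozen library was left. The log2 fold changes ran from -0.53 to -0.34 over all 15 alternatives. Between DMSO-frozen and fresh cells the log2 fold change was -0.11 ± 0.12 (adjusted p = 0.747).

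**Figure D2:**
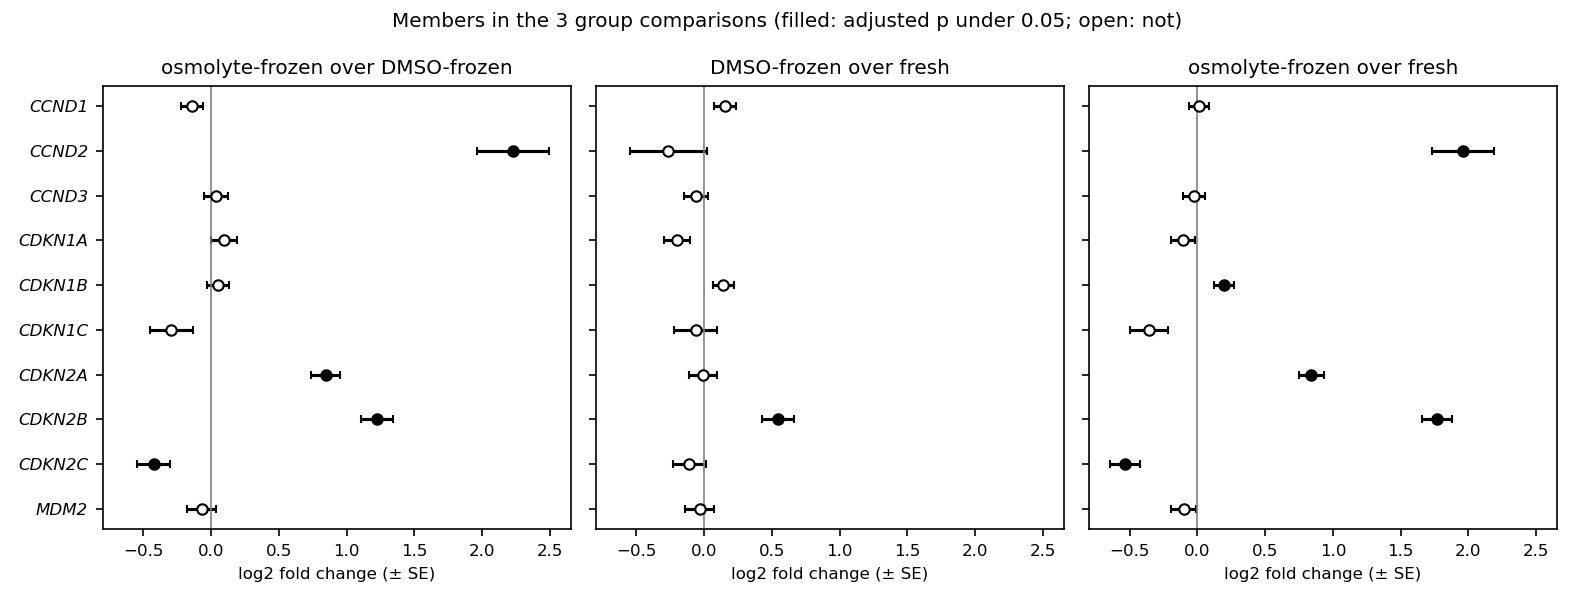
Log2 fold change (horizontal axis, ± SE) of each gene (vertical axis) in the 3 group comparisons, from 1 edgeR fit of all 8 libraries, filled where the adjusted p was under 0.05. CCND2, CDKN2A and CDKN2B lie to the right and CDKN2C to the left in both comparisons with osmolyte-frozen cells, and CDKN2B alone is filled between DMSO-frozen and fresh cells.

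Per length, the make-up of the INK4 transcripts differed between groups. In fresh cells CDKN2A made up 47.5% ± 2.74 of the summed INK4 RPKM, CDKN2B 27.0% ± 1.39 and CDKN2C 25.5% ± 1.94 (SD, n = 3). In DMSO-frozen cells the shares were 42.9% ± 3.06, 35.7% ± 3.24 and 21.4% ± 0.175 (n = 2). In osmolyte-frozen cells they were 43.8% ± 1.45, 47.0% ± 3.36 and 9.15% ± 2.07 (n = 3). CDKN2B thus passed CDKN2A as the most abundant INK4 transcript in 2 of the 3 osmolyte-frozen libraries. SMC had 16.0 RPKM of CDKN2B and 13.7 of CDKN2A, SGC 13.9 and 12.6, and SGI 11.8 and 12.4. The split of reads that match both genes is uncertain, and with it this order. The shares of CDKN2B and of CDKN2C did not overlap between any of the groups. The ratio of summed INK4 to summed D-type cyclin RPKM was 0.221 ± 0.00470 in fresh, 0.225 ± 0.000973 in DMSO-frozen and 0.426 ± 0.0265 in osmolyte-frozen cells, where the lowest library had 0.396. The same ratio for the CIP/KIP genes was 2.29 ± 0.0149 in fresh and 2.15 ± 0.159 in osmolyte-frozen cells, where SGI at 1.97 was lowest, and it was 1.93 and 1.87 in the DMSO-frozen 1 h and 0 h libraries. These ratios are formed within a library and carry no test.

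**Figure D3:**
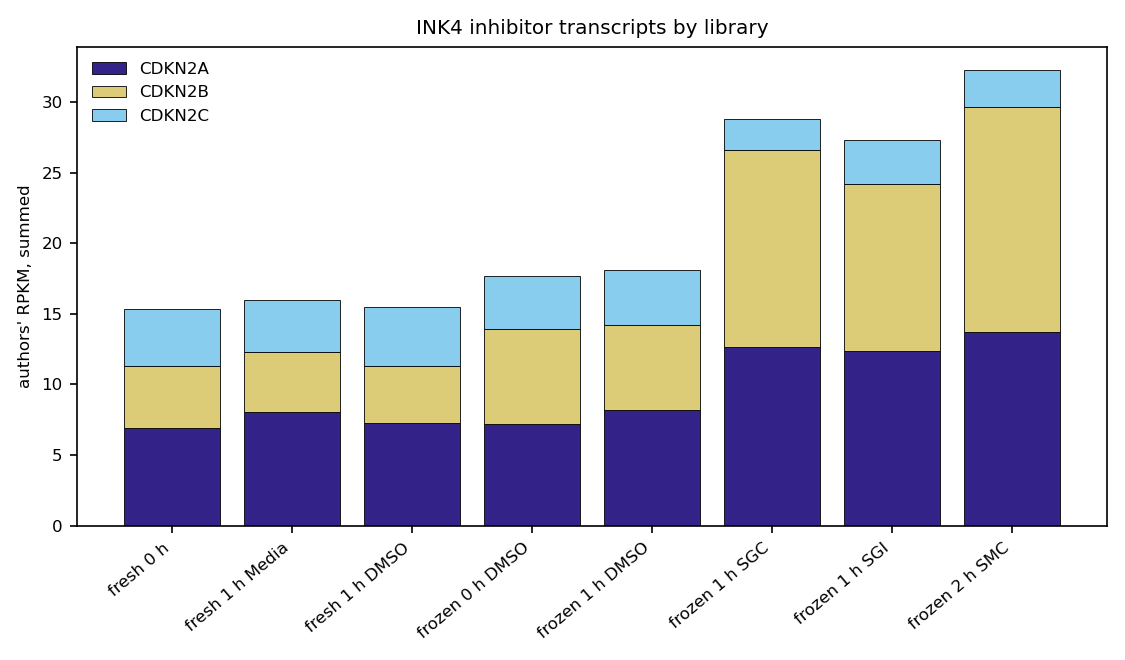
Authors' RPKM of CDKN2A, CDKN2B and CDKN2C (stacked bars, vertical axis from 0) in each of the 8 libraries. Read within each bar, CDKN2B makes up on average 27.0% in fresh, 35.7% in DMSO-frozen and 47.0% in osmolyte-frozen libraries and CDKN2C 25.5%, 21.4% and 9.15%; the heights of the bars are not compared between groups, since the counts made up a different share of the library total behind RPKM in each.

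MDM2, the ubiquitin ligase for p53 and itself a p53 target, lies at chr12:69201971-69239212. It stood at 210, 235 and 222 CPM in fresh 0 h, 1 h DMSO and 1 h Media cells, at 210 and 225 CPM in DMSO-frozen 1 h and 0 h cells, and at 246, 190 and 187 CPM in SMC, SGC and SGI. SMC was the highest of the 8 libraries while SGC and SGI were the lowest. The log2 fold change was -0.07 ± 0.11 between frozen groups (edgeR adjusted p = 0.650), -0.03 ± 0.11 for DMSO-frozen against fresh (adjusted p = 0.928) and -0.10 ± 0.09 for osmolyte-frozen against fresh cells (adjusted p = 0.415). The osmolyte-frozen value rested on SMC: without it MDM2 was lower than in fresh cells, at log2 -0.26 (adjusted p = 0.0162), and with only the libraries held for 1 h at -0.28 (adjusted p = 0.0457).

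Against fresh cells, osmolyte-frozen cells had CCND2, CDKN1B, CDKN2A and CDKN2B called higher and CDKN2C called lower, where 39.4% of all genes tested were called, 18.6% higher and 20.7% lower. The libraries of the groups did not overlap for 5 of the 10 genes, these same 5, against 49.1% of all genes tested. DESeq2 called 4 of the 10 higher and 2 lower, and limma-voom 4 higher and 1 lower. CCND2, CDKN2A and CDKN2B were called in all 15 alternative analyses of both comparisons with osmolyte-frozen cells. The log2 fold change against DMSO-frozen cells ran from 2.06 to 2.46 for CCND2, from 0.71 to 0.94 for CDKN2A and from 1.08 to 1.35 for CDKN2B.

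Pairs of single libraries separated incubation, DMSO and solution, with no replicate and hence no test. Among fresh cells, 1 h in medium against 0 h, 1 h with DMSO against 1 h in medium, and 1 h with DMSO against 0 h each left all 10 genes less than 1.5-fold apart, where 4.19%, 4.61% and 3.25% of genes with a count of at least 50 were that far apart. The highest fold in these pairs was 1.43, that of CCND2 between fresh 1 h DMSO and Media, with a counting interval of -0.28 to 1.38 for the log2 ratio. CDKN1C was 1.40-fold higher after 1 h in medium than at 0 h. In DMSO-frozen cells, 1 h against 0 h again showed none of the 10 genes 1.5-fold apart (background 2.63%), with CDKN1C at 1.34-fold. Frozen against fresh cells with DMSO, both at 1 h, showed none (background 4.33%), the highest fold being 1.49 for CDKN2B.

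Among the osmolyte solutions CCND2 was the member that differed by 1.5-fold or more. It was 1.72-fold higher in SMC and 1.79-fold higher in SGC than in SGI, where 5.01% and 2.77% of genes were that far apart. Their 95% counting intervals for the log2 ratio, 0.37 to 1.21 and 0.44 to 1.26, did not include 0. SMC and SGC showed no member 1.5-fold apart (background 4.09% of genes), with MDM2 at 1.29-fold higher in SMC as the widest. CDKN2B was 1.42-fold higher in SMC and 1.23-fold higher in SGC than in SGI, and CDKN2C 1.34-fold lower in SGC than in SGI. SMC also differed from the others in its 2 h incubation, so solution and time cannot be told apart there.

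The chromosome 9 neighbourhood was looked at because 2 members adjoin there. Within 500 kb of CDKN2B, 6 of 8 genes were tested. CDKN2B lies inside CDKN2B-AS1 (chr9:21994790-22121093), a long noncoding RNA gene on the opposite strand, and since the strand setting of the counting is not given in the sources used here, reads of one may be counted in the other. CDKN2B-AS1 stood at 2.78, 2.28 and 1.75 CPM in fresh 0 h, 1 h DMSO and 1 h Media cells, 2.67 and 2.13 CPM in DMSO-frozen 1 h and 0 h cells, and 4.06, 4.64 and 5.77 CPM in SMC, SGC and SGI. All 3 osmolyte-frozen libraries were again above the other 5, but in the reverse order of CDKN2B, SGI being highest, with counting intervals that overlapped from each library to the next. It rose 2.01-fold against DMSO-frozen cells (edgeR adjusted p = 0.00216) and 2.12-fold against fresh cells (adjusted p = 0.000232).

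No gene on either side was called higher. MTAP, an enzyme of methionine salvage next to CDKN2A, had 44.1 CPM in fresh, 41.7 in DMSO-frozen and 39.4 in osmolyte-frozen cells, with log2 fold changes of -0.08 ± 0.08 between frozen groups (edgeR adjusted p = 0.462) and -0.16 ± 0.07 against fresh (adjusted p = 0.0804). DMRTA1, on the other side, had 3.13, 3.95 and 3.47 CPM in the same order and passed no test (adjusted p = 0.497 between frozen groups and 0.554 for osmolyte-frozen against fresh). MIR31HG, a noncoding RNA gene beyond MTAP, fell 1.30-fold between frozen groups (edgeR adjusted p = 0.00905) and 1.49-fold against fresh cells (adjusted p = 8.27e-05). Around CCND2, 7 of 11 genes within 500 kb were tested. DYRK4, a protein kinase gene, was 1.26-fold higher between frozen groups (edgeR adjusted p = 0.0149), and the nearest gene, C12orf5, was not called (log2 -0.19 ± 0.08, adjusted p = 0.0864).

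**Figure D4:**
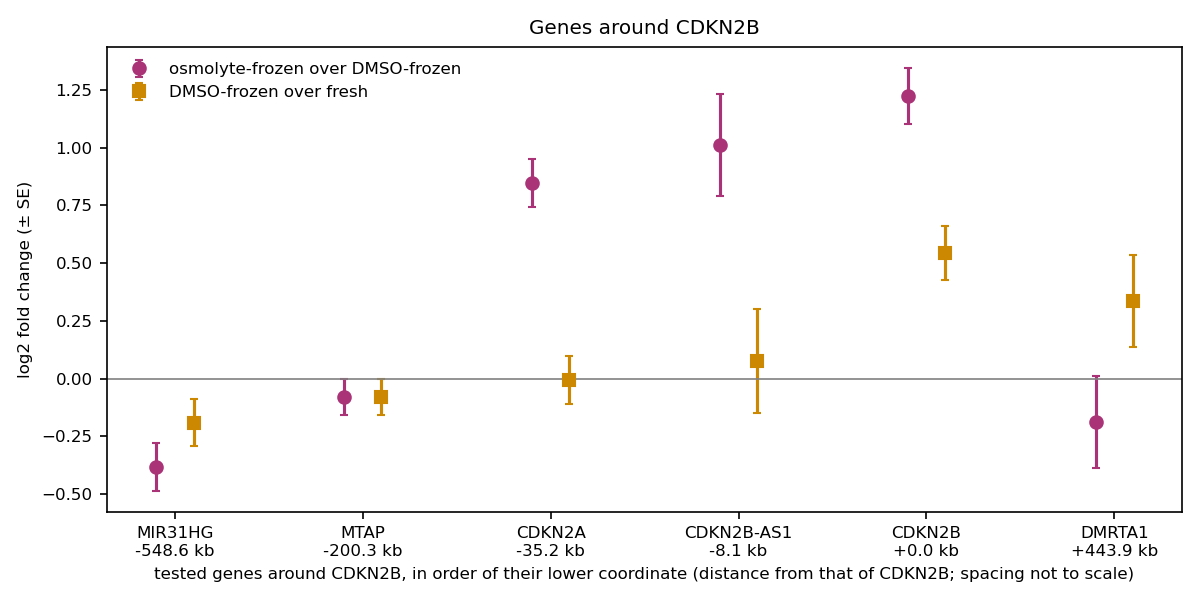
Log2 fold change (vertical axis, ± SE) of the 6 tested genes around CDKN2B, in order along chromosome 9 with spacing not to scale (horizontal axis), for osmolyte-frozen against DMSO-frozen cells (circles) and DMSO-frozen against fresh cells (squares). CDKN2A, CDKN2B-AS1 and CDKN2B lie well above 0 in the first comparison, at 0.85, 1.01 and 1.22, while of these CDKN2B alone, at 0.54, stands clear of 0 in the second.

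The genes around the members in the pathway were described from 5 lists. Their counts stand beside the share of all genes tested that was called: 13.1% higher and 16.2% lower between frozen groups, 18.6% and 20.7% for osmolyte-frozen against fresh cells, and 1.22% and 0.603% for DMSO-frozen against fresh cells. Of 24 genes of the G1 to S machinery, 1 was higher and 5 lower in osmolyte-frozen than in DMSO-frozen cells, 1 and 6 against fresh cells, and 0 and 0 between DMSO-frozen and fresh cells, where 2 were higher and 1 lower at an unadjusted edgeR p under 0.05 and DESeq2 and limma-voom called 0. That is 6 and 7 of 24 genes in either direction, against 29.3% and 39.4% of all genes. RB1, the retinoblastoma gene whose product the D-type cyclin kinases phosphorylate, fell 1.31-fold between frozen groups, from 63.6 ± 2.58 CPM in DMSO-frozen (SD, n = 2) to 48.5 ± 2.33 in osmolyte-frozen cells (n = 3; edgeR adjusted p = 0.00154). RBL1, its relative p107, fell 1.40-fold (adjusted p = 0.00434). CDC25A, a phosphatase that activates CDK2, fell 1.38-fold (adjusted p = 0.0286). Against fresh cells CCNA2, the S phase cyclin, fell 1.47-fold (adjusted p = 4.12e-05), RBL1 1.43-fold (0.000704) and CDKN3, a CDK2 phosphatase, 1.37-fold (0.0152). CDK4, the partner of the D-type cyclins, was lower in both, at log2 -0.24 (adjusted p = 0.0284) and -0.29 (0.00311), and E2F4, a repressing E2F, was the gene called higher in both, at 0.23 (0.0345) and 0.19 (0.0337); these 2 genes fell outside the naming rule and were chosen after their values were seen. The median log2 fold change of the list was -0.06 between frozen groups and -0.08 against fresh cells, beside 0.04 and 0.02 over all genes.

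Of 13 proliferation markers, 8 were lower and 0 higher in osmolyte-frozen than in DMSO-frozen cells, and 11 lower and 0 higher against fresh cells, beside 16.2% and 20.7% of all genes called lower, with 0 higher at an unadjusted p under 0.05 and by DESeq2 or limma-voom in either comparison. Their median log2 fold change was -0.34 and -0.47. Their summed level was 857 to 961 CPM in fresh, 824 to 914 in DMSO-frozen and 644 to 733 in osmolyte-frozen libraries. TOP2A, a topoisomerase of dividing cells, fell 1.44-fold between frozen groups (edgeR adjusted p = 0.00127), BUB1, a mitotic checkpoint kinase, 1.41-fold (0.00120), and MCM6, a subunit of the replicative helicase, 1.40-fold (0.000601). Against fresh cells RRM2, which supplies deoxynucleotides, fell 1.54-fold (adjusted p = 1.01e-05), MCM2 1.47-fold (4.92e-05) and BUB1 1.45-fold (0.000132). Between DMSO-frozen and fresh cells none was called by edgeR, DESeq2 or limma-voom, with 1 lower at an unadjusted p under 0.05.

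Of 12 genes for the turnover of cyclins and inhibitors, 1 was higher and 2 lower between frozen groups, and 1 higher and 7 lower against fresh cells, beside 29.3% and 39.4% of all genes called in either direction. CRYAB, a small heat shock protein, was 1.83-fold higher in osmolyte-frozen than in DMSO-frozen cells (edgeR adjusted p = 0.00269) and 1.84-fold lower in DMSO-frozen than in fresh cells (0.0219), the only gene of the list called there, with limma-voom calling 0. UHMK1, a kinase of p27, fell 1.71-fold (0.00335) and GSK3B, a kinase that marks cyclin D1 for export and decay, 1.36-fold (0.00570) between frozen groups. Against fresh cells UHMK1 fell by 0.59 on the log2 scale (0.00610) and SKP1, a subunit of ubiquitin ligases, 1.29-fold (0.00181), while SKP2, the F-box protein for p27, rose 1.24-fold (0.00494).

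Of 27 genes of the p53 network besides MDM2 and CDKN1A, 8 were higher and 3 lower between frozen groups, 9 and 4 against fresh cells, and none between DMSO-frozen and fresh cells, where 3 were higher and 2 lower at an unadjusted edgeR p under 0.05 and the other tools called 0. Of all genes, 29.3% and 39.4% were called in the first and second of these comparisons. BBC3, which encodes the apoptosis protein PUMA, rose 1.93-fold between frozen groups, from 11.5 ± 2.71 to 22.2 ± 1.13 CPM (edgeR adjusted p = 3.13e-05), and 2.12-fold against fresh cells (5.73e-07). PLK3, a stress kinase, rose 1.68-fold between frozen groups (0.0332). MDM4, the partner of MDM2, rose 1.58-fold between frozen groups (1.88e-05) and 1.52-fold against fresh cells (4.47e-06), and SESN2, a stress-induced regulator of growth, 1.58-fold against fresh cells (1.11e-05). The genes called lower had smaller changes than those named, and are given here after their values were seen. Between frozen groups they were RRM2B (log2 -0.48), CCNG1 (-0.44) and XPC (-0.43). Against fresh cells they were XPC (log2 -0.60), BTG2 (-0.51), RRM2B (-0.41) and CCNG1 (-0.36). The medians of this list, 0.03 and 0.05, were near those of all genes.

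Of 17 genes of the TGF-beta and FOXO inputs to CDKN2B and the CIP/KIP genes, 1 was higher and 5 lower between frozen groups, 3 and 7 against fresh cells, and 1 and 2 between DMSO-frozen and fresh cells, where limma-voom called 1 higher and 0 lower. Of all genes, 29.3%, 39.4% and 1.82% were called in these comparisons. SMAD3, which carries the TGF-beta signal to the nucleus, had 421 ± 6.55 CPM in fresh (SD, n = 3), 332 ± 13.4 in DMSO-frozen (n = 2) and 211 ± 18.5 in osmolyte-frozen cells (n = 3). It fell in all 3 comparisons, 1.57-fold between frozen groups (edgeR adjusted p = 1.79e-05), 1.27-fold for DMSO-frozen against fresh (0.0440) and 1.99-fold for osmolyte-frozen against fresh (9.63e-09). The receptors went apart in both comparisons with osmolyte-frozen cells. Between frozen groups TGFBR2 fell 1.59-fold (8.95e-05) and TGFBR1 was higher, at log2 0.32 (0.0158). From fresh to osmolyte-frozen cells TGFBR2 was lower, at log2 -0.46 (0.000561), and TGFBR1 rose 1.78-fold (4.56e-07). From fresh to DMSO-frozen cells TGFBR1 rose 1.43-fold (0.00504), while TGFBR2 was not called (log2 0.21, edgeR adjusted p = 0.396). SMAD7, the inhibitory SMAD, fell 1.36-fold from fresh to DMSO-frozen (0.0259) and 1.42-fold from fresh to osmolyte-frozen cells (0.000234). FOXO3, a factor known to act on CDKN1B, fell 1.38-fold between frozen groups (0.00251).

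**Figure D5:**
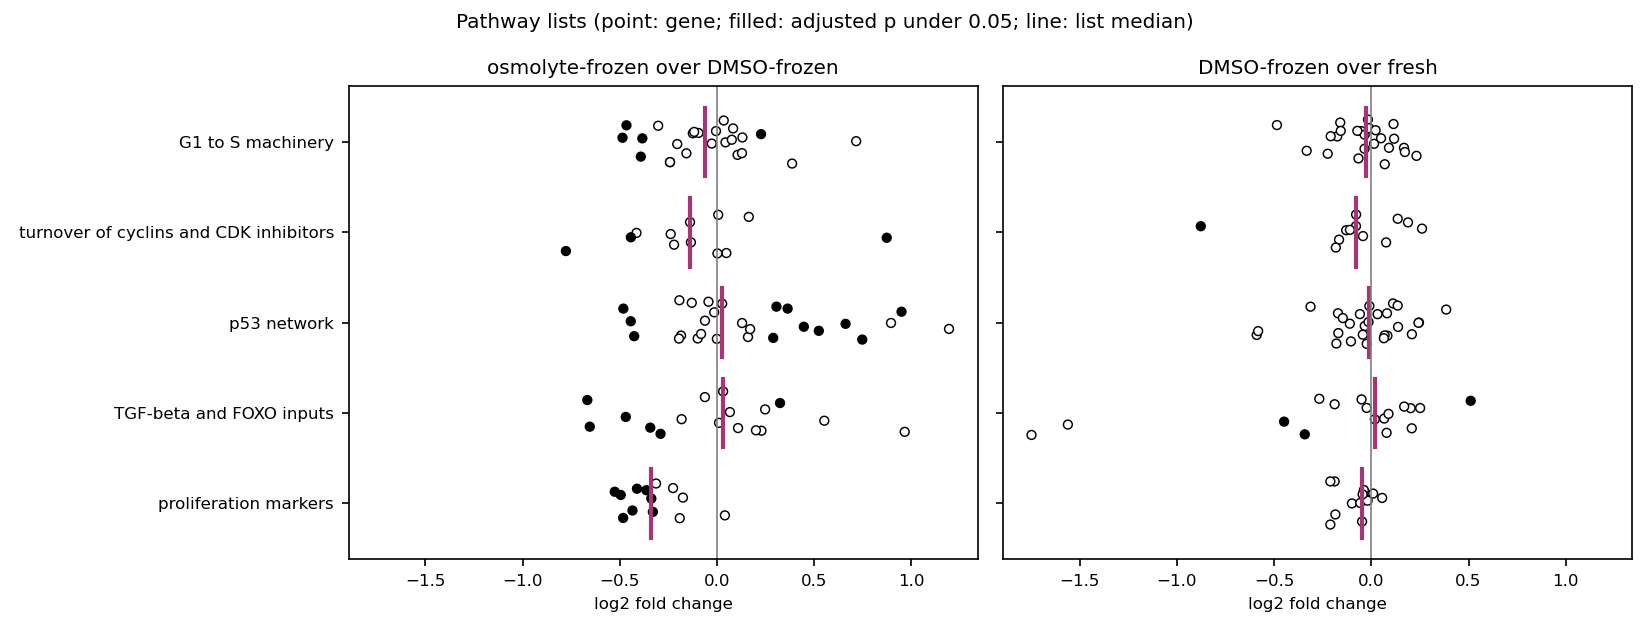
Log2 fold change (horizontal axis) of each gene (points, filled where the edgeR adjusted p was under 0.05) in 5 pathway lists (vertical axis), with the list median as a line, for osmolyte-frozen against DMSO-frozen cells (left) and DMSO-frozen against fresh cells (right). On the left the median of the proliferation markers lies lowest of the 5, at -0.34, and on the right it lies at -0.05.

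Genes whose levels followed a member most closely over the 8 libraries were found by the root mean square difference of mean-centred log2 CPM, among 10689 genes with a mean of at least 5 CPM. For CCND2 the closest were CMAHP (0.26), ANKRD1 (0.32) and DCN (0.33), beside a spread of CCND2 about its own mean of 1.01. DCN, the proteoglycan decorin, had 40.7 CPM in fresh, 52.0 in DMSO-frozen and 150 in osmolyte-frozen cells. ANKRD1, an ankyrin repeat protein, had 40.2, 40.8 and 134 CPM. For CDKN2B the closest were ST3GAL5 (0.10), MRVI1 (0.12) and SULT1E1 (0.13), beside its own spread of 0.79. ST3GAL5, the sialyltransferase that makes the ganglioside GM3, had 33.9, 48.0 and 100 CPM, in the same order of groups as CDKN2B. For CDKN2A they were RASA4 (0.10), ME3 (0.10) and PDLIM7 (0.11), beside a spread of 0.42, and for CDKN2C PRDM8 (0.06), RAD54L2 (0.06) and ITPR3 (0.07), beside 0.27. For the other 6 members, the closest were FADS1, CHD3 and HGSNAT (each 0.04, own spread 0.08) for CCND1, WIPI2, PELP1 and SLC4A2 (each 0.03, own spread 0.08) for CCND3, and IL17RC (0.04), GMPPA and FAM3A (both 0.05, own spread 0.13) for CDKN1A. They were ENTPD4, UBXN4 and FAM48A (each 0.03, own spread 0.10) for CDKN1B, PITPNM1, MLKL (both 0.09) and RIN3 (0.10, own spread 0.24) for CDKN1C, and PIP5K1A, TOR1AIP2 and PPM1D (each 0.05, own spread 0.13) for MDM2.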

How the data were processed

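Total RNA of 8 libraries was sequenced. The submitters' processing notes name CASAVA 1.9, TopHat (given as 12.0.6), HTSeq and hg19. Neither the annotation release nor a strand setting was found there. The authors deposited 1 table with a whole-number count and an RPKM value per gene and library, per the file headers. All counts are even (0 odd), for a reason no source gives. The authors' RPKM values are scaled by length and by a library total of which the counts make up 68.5% in fresh, 72.6% in DMSO-frozen and 65.2% in osmolyte-frozen libraries, so RPKM was used to set genes beside each other and CPM to compare groups. The 23398 entries gave 23354 genes: of 49 repeated identifiers, 41 had identical counts and were kept once, and 8 differed and were kept apart.

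Groups were read from the titles. Genes were filtered with filterByExpr by group and scaled by TMM. The 15924 genes left were fitted in 1 model of 3 groups with edgeR 4.0.16 in R 4.3.3 (glmQLFit, robust, glmQLFTest; Benjamini-Hochberg at 0.05 over all genes; 5 residual degrees of freedom; biological coefficient of variation 0.0974). SEs were obtained from the log2 fold change and the F statistic, |log2 fold change| / sqrt(F). Intervals of a log2 fold change use this SE and a normal quantile for 95%. They take no account of the few degrees of freedom and are therefore somewhat too narrow. Intervals of single libraries are exact Poisson, assume that each counted unit was entered as 2, and cover counting error only. Pairs of libraries were compared by log2 ratios (prior count 2) without a test. Alternatives were DESeq2 1.42.0, limma-voom 3.58.1, other scalings, no filter, only the groups compared, only the 1 h libraries, and leaving out each library. The fit was tested on simulated data.

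The members and gene lists were chosen with earlier results of these data known. All 10 members are named. From each other list up to 3 genes per comparison are named, those with the largest change among genes called with at least 5 CPM on the higher side. Likeness names 3 genes per member. The RefSeq promoter table (GRCh38.p14) was used for sequence only, and gene positions are in hg19, from the table itself.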

Additional observations from a re-analysis of the deposited data

How the results depend on the processing

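No paired analysis was possible because the labels carry no replicate numbers. Over 15 alternatives, CCND2, CDKN2A and CDKN2B kept direction and call in both comparisons with osmolyte-frozen cells. The other calls that changed stand beside their genes in the report, with 1 exception. For CDKN1C between frozen groups with only the 1 h libraries, the effect size alone is given there, since a single DMSO-frozen library was left. With only the 1 h libraries, 2388 genes were called between frozen groups and 182 between DMSO-frozen and fresh cells, the latter with 0 members higher. With all 8 libraries, DESeq2 called 499 genes between DMSO-frozen and fresh cells. Leaving out a library gave 2122 to 5254 genes and 0 to 1 members lower between frozen groups, 99 to 310 genes and 0 to 1 members higher for DMSO-frozen against fresh, and 3 to 4 members higher and 1 to 3 lower for osmolyte-frozen against fresh. In the last comparison 2 members were lower with no filter, with DESeq2 and with only the groups compared, and 3 with only the 1 h libraries. Scaling by library totals alone raised the share of higher calls between frozen groups from 44.8% to 56.4% and the median of all genes from 0.04 to 0.10.

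Members near 0, none of them called either way, changed sign. Between frozen groups, CCND3 was at -0.091 and CDKN1A at -0.021 with only the 1 h libraries, and MDM2 changed sign without SGI. For DMSO-frozen against fresh, CDKN2A was at 0.0023 with no filter, 0.00023 with only the groups compared and 0.030 with the 1 h libraries, and CDKN1C at 0.033 with the 1 h libraries. For osmolyte-frozen against fresh, CCND3 was at 0.0043 with library totals, and CCND1 at -0.0091 with no filter and -0.015 with the 1 h libraries. Leaving out a library in turn spanned, between frozen groups, -0.047 to 0.118 for CCND3 and -0.233 to 0.0025 for MDM2. For DMSO-frozen against fresh it spanned -0.145 to 0.016 for CCND3, -0.287 to 0.136 for CDKN1C, -0.106 to 0.088 for CDKN2A and -0.083 to 0.017 for MDM2. For osmolyte-frozen against fresh it spanned -0.045 to 0.041 for CCND1 and -0.103 to 0.019 for CCND3. The cause of these changes was not tested. Of 160 single-library ratios under other settings, 148 moved by less than their counting interval. At a count of 44 to 68 outside the osmolyte-frozen group, CCND2 is the member whose level depth limits most.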
